A study of Mus musculus with 2 samples.

Results

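In droplet single-cell RNA sequencing of mouse pancreatic islets, some cell barcodes carried an unusually large part of their RNA from the mitochondrial genome. These high-mitochondrial barcodes were chosen as those with at least 1500 UMIs (unique molecular identifiers, which count captured RNA molecules) of which more than 15% fell on genes whose symbol starts with mt-. There were 3129 of them among 25157 barcodes with at least 1500 UMIs, 2420 of 14536 in the HFD library and 709 of 10621 in the CD library. They are set against the retained barcodes of the same library, which had at most 15% mitochondrial UMIs and at least 500 detected genes and numbered 12062 (HFD) and 9667 (CD). The HFD library came from islets of C57BL/6J mice aged 13 weeks on a high-fat diet. The other library came from mice of the same strain and age under the treatment label CD, which the labels do not expand. Neither label names a transgene or drug, and the protocol was shared: islets were freed with collagenase P, separated on a density gradient, hand-picked, dispersed with TrypLE and, after a viability check, loaded for 10x Genomics 3' libraries.

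With 1 library per diet there is no replicate, and the labels do not state how many mice gave each library. No difference below carries a test. Every interval is an exact 95% interval over UMIs or barcodes and covers counting error only, and diet, library and the handling of that library cannot be told apart. The files held 271527648 UMIs in the HFD library and 265836346 in the CD library, of which high-mitochondrial barcodes held 2.48% and 0.717%. Of barcode sequences, 0 were high-mitochondrial in both libraries, 9 HFD high-mitochondrial barcodes were also retained CD barcodes, 4 CD ones were also retained HFD barcodes, and 26 were retained in both.

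Mitochondria carry a small genome that encodes subunits of the respiratory chain and of ATP synthase, and its transcripts stay inside the organelle. Messenger RNA of nuclear genes works in the cytosol, whereas RNAs such as Malat1, Neat1 and Meg3 are kept in the nucleus. When the plasma membrane of a dissociated cell leaks, cytosolic RNA is lost first, so a high mitochondrial share is commonly read as a sign of a damaged cell, although cells rich in mitochondria can also carry a high share. Beta cells, which secrete insulin, depend on mitochondrial ATP to sense glucose.

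High-mitochondrial barcodes held somewhat more mitochondrial RNA than retained ones and far less of all other RNA. HFD high-mitochondrial barcodes had a median of 1088.5 mitochondrial UMIs against 689 in HFD retained barcodes, and the CD medians were 957 against 584. UMIs outside mitochondrial genes had a median of 1041.5 against 16856.5 in the HFD library and 1172 against 21208 in the CD library. The rule selects on the ratio of these quantities, so the contrast is a description. The range from the 25th to the 75th percentile overlapped between the sets for mitochondrial UMIs in both libraries, and did not for the other UMIs. Detected genes followed the other UMIs, with medians of 465.5 against 2532 (HFD) and 597 against 2927 (CD), and 1255 HFD (51.9%) and 301 CD (42.5%) high-mitochondrial barcodes had under 500 genes. Most sat near the UMI minimum: 75.7% (HFD) and 76.4% (CD) had under 3000 UMIs, against 5.60% and 6.92% of retained barcodes.

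**Figure D1:**
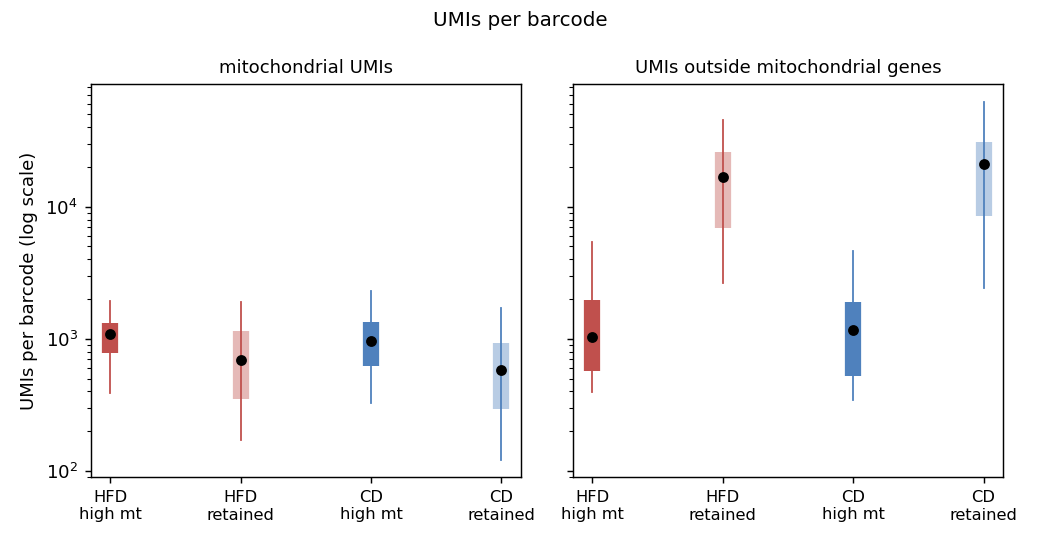
UMIs per barcode on a log axis, for mitochondrial genes (left) and all other genes (right), in high-mitochondrial (high mt) and retained barcodes of each library. Dots are medians, boxes the 25th to 75th and lines the 5th to 95th percentile, with no error bar since each set is 1 library: the mitochondrial boxes overlap, with medians of 1088.5 and 689 in the HFD library, and the other boxes do not.

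High mitochondrial share was more common in the HFD library. It was found in 16.6% of HFD barcodes with at least 1500 UMIs (interval 16 to 17.3%) and in 6.68% of CD barcodes (6.21 to 7.17%). The difference of 9.97 percentage points had a counting interval of 9.20 to 10.7. RNA free in the suspension moved with it: barcodes of 10 to 100 UMIs, which are mostly empty droplets, had 19.3% mitochondrial UMIs in the HFD library and 8.80% in the CD library, and the part of this free RNA in the difference was not tested. The difference in points was smaller where more RNA was asked of a barcode: 3.09 points with a minimum of 3000 UMIs and 4.17 points with at least 500 genes in high-mitochondrial barcodes. Such limits lower both shares, since 75.7% (HFD) and 76.4% (CD) of high-mitochondrial barcodes had under 3000 UMIs and 51.9% and 42.5% under 500 genes. Fewer points thus do not by themselves mean a smaller relative excess.

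The distribution of the share had no gap at the limit. Between 13 and 15% lay 209 HFD and 164 CD barcodes, and between 15 and 17% lay 170 and 65. Further up, the counts fell to a trough and then formed another peak, at 72.5 to 75% in the HFD library and at 77.5 to 80% in the CD library. More than 50% of UMIs were mitochondrial in 1167 HFD (48.2%) and 299 CD (42.2%) high-mitochondrial barcodes. The barcodes below and above 50% are described separately further on, since their other RNA differed.

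**Figure D2:**
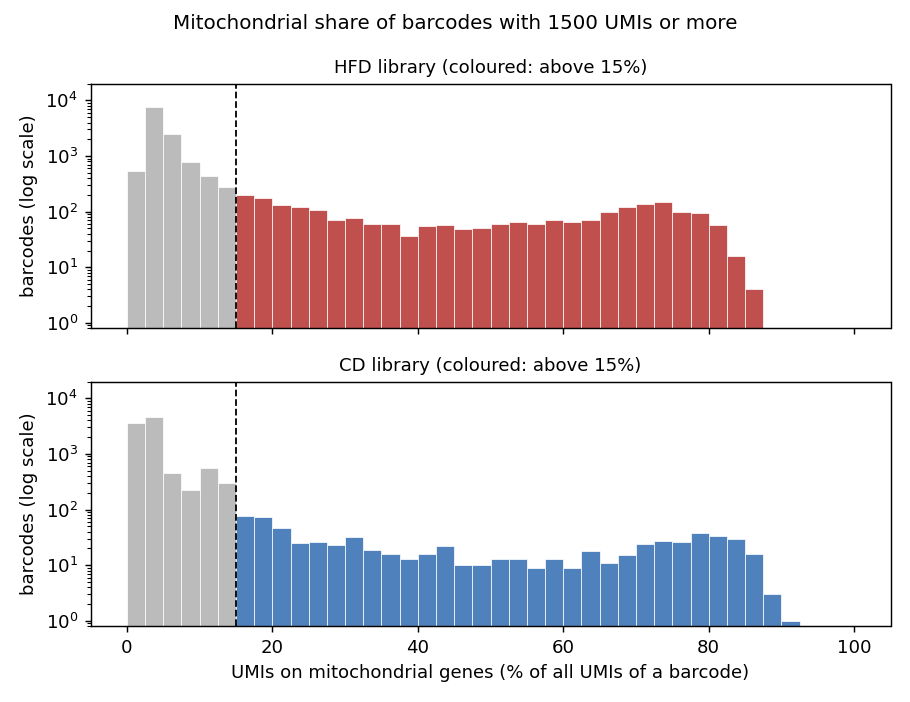
Number of barcodes (log axis) by share of UMIs on mitochondrial genes, in bins of 2.5 percentage points, for all barcodes with at least 1500 UMIs in the HFD (top) and CD (bottom) library. The dashed line is the 15% limit: bars continue across it without a gap, and both libraries have a peak between 70 and 80%.

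Most high-mitochondrial barcodes had insulin as their largest hormone. The class of a barcode is the largest of its UMIs on Ins1 plus Ins2 (insulin, beta cells), Gcg (glucagon, alpha cells), Sst (somatostatin, delta cells) and Ppy (pancreatic polypeptide, PP cells). The insulin class held 2248 of 2420 HFD high-mitochondrial barcodes (92.9%, 91.8 to 93.9) against 72.4% of HFD retained barcodes. In the CD library it held 668 of 709 (94.2%, 92.2 to 95.8) against 76.6%. The other classes accounted for all remaining high-mitochondrial barcodes: 98 HFD and 29 CD barcodes of the glucagon class, 54 and 7 of the somatostatin class, and 20 and 5 of the pancreatic polypeptide class.

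Counted within a class, 20.5% of HFD and 8.27% of CD insulin-class barcodes were high-mitochondrial, a difference of 12.2 points (11.2 to 13.2). The glucagon class had 4.63% and 2.17%, and the somatostatin class 9.25% and 1.43%. In all 3 of these classes the counting intervals of the HFD and CD libraries did not overlap, so the HFD excess was not limited to the insulin class. In the pancreatic polypeptide class the shares were 2.49% and 1.05%, and the difference of 1.44 points had an interval of -0.243 to 2.94, which includes 0. The classes also differed in how high the share went: the median over high-mitochondrial barcodes was 51.7% (HFD) and 43.0% (CD) in the insulin class and 19.2% and 19.0% in the glucagon class.

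The class call leans on few UMIs here and may take in insulin RNA that is free in the suspension. For hormones of another class and acinar genes with at least 50 UMIs in free RNA, the level in insulin-class barcodes was set against that in free RNA. This left 3 genes in the HFD library and 7 in the CD library, so the values of the 2 libraries rest on unlike sets of genes. The lowest of these ratios was 40.6% (HFD) and 28.6% (CD) in high-mitochondrial barcodes against 13.2% and 16.7% in retained ones, and the highest 152% and 303% against 43.1% and 110%. The genes thus gave very unequal estimates of the free part, and the lowest was the larger in high-mitochondrial barcodes of both libraries. The class was read at matched depth as well. Among barcodes with 2550 to 5100 UMIs outside mitochondrial genes, insulin was the largest hormone in 76.8% of 310 HFD high-mitochondrial barcodes against 52.8% of HFD retained ones, and in 96.6% of 89 against 80.3% in the CD library. At 1275 to 2550 UMIs it was 91.0% against 80.1% (HFD) and 86.9% against 88.1% (CD), so the CD excess was absent in that band. When the free RNA profile was subtracted before calling the class, the insulin share of high-mitochondrial barcodes was 75.6% (HFD) and 83.6% (CD). The insulin class then held 7916 of 12062 HFD and 6661 of 9667 CD retained barcodes, a lower share in both libraries.

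**Figure D3:**
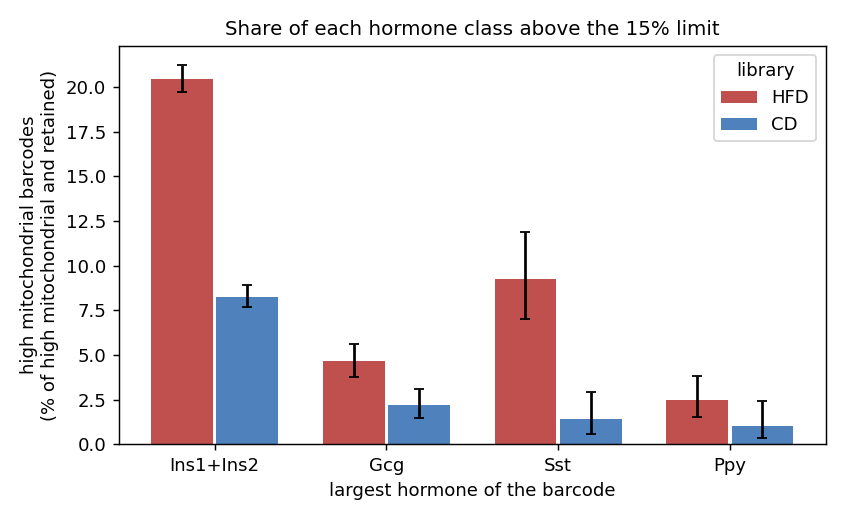
Share of the barcodes of each hormone class (high-mitochondrial and retained together) that were high-mitochondrial, HFD bar left of CD bar. Bars start at 0 and error bars are exact 95% counting intervals of 1 library each: the insulin class has 20.5% and 8.27%, and the pair of intervals overlaps in the Ppy class.

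Few high-mitochondrial barcodes were low in hormone RNA. Hormone UMIs made up under 10% of the UMIs outside mitochondrial genes in 63 HFD (2.60%) and 26 CD (3.67%) high-mitochondrial barcodes, against 8.14% and 7.72% of retained ones. In these low-hormone barcodes all 7 endothelial markers were detected in both libraries and summed to 11331 CPM (HFD) and 4966 CPM (CD), where CPM is counts per 1000000 UMIs outside mitochondrial genes. All 8 macrophage markers were detected too, at 4086 and 5433 CPM, and all 7 mesenchymal markers at 4626 and 4457 CPM. In the other high-mitochondrial barcodes these sums were 254 and 26.2 CPM for endothelial, 288 and 151 CPM for macrophage and 248 and 57.0 CPM for mesenchymal markers, with Col1a1 at 0 in both libraries. Acinar markers stood at 443 (HFD) and 6630 CPM (CD) in low-hormone barcodes, with all 12 detected in the CD library, and erythroid markers at 6359 and 13.8 CPM. In the other high-mitochondrial barcodes acinar markers had 290 and 838 CPM and erythroid markers 1084 and 818 CPM. Low-hormone barcodes still received a hormone class, mostly insulin, and stay in the insulin-class values below unless stated. Free RNA was itself rich in beta markers, insulin among them, at 540604 (HFD) and 577488 CPM (CD). Barcodes of other cell types can thus pass the 10% limit through free RNA, so the limit cannot give their number.

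RNA levels were compared within the insulin class, as CPM outside mitochondrial genes, so that the mitochondrial share itself cannot push the other genes down. A gene entered where it had at least 50 UMIs and 50 CPM in the set where it was higher, and it is called where the ratio was 2 times or more with an interval that excludes 1. In the insulin class this entry rule admits more genes that are higher in the shallow high-mitochondrial set than genes that are lower there. Of 2095 genes entered in both libraries, 943 (45.0%) were called higher in high-mitochondrial barcodes in both and 1 (0.0477%), Iapp, was called lower in both. Within the HFD library 50.6% of 2347 genes and within the CD library 54.1% of 2493 genes were called higher, and 3 (0.128%) and 7 (0.281%) lower. The median log2 ratio of the genes entered in both was 0.96 (HFD) and 1.07 (CD), while insulin and Iapp took a smaller part of the total. With TMM scaling that median was -0.31 and -0.29 and 45 genes were called higher, against 450 lower, so a ratio below is to be read against the all-gene median. Across the 2095 genes the log2 ratios of the HFD and CD libraries had Pearson's r of 0.92, as a description of genes that are not independent.

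Of the functional gene lists compared, apart from the mitochondrial genes the rule used, RNAs that stay in the nucleus had the highest median. Malat1, a long noncoding RNA of nuclear speckles (GRCm38 chromosome 19, 5795690 to 5802672, minus strand), had 61899 CPM in HFD high-mitochondrial barcodes against 10527 CPM in HFD retained ones. In the CD library it had 56160.2 against 7948 CPM. The log2 ratios were 2.56 (2.55 to 2.56) in the HFD library and 2.82 (2.81 to 2.83) in the CD library, above the all-gene median in both. Meg3, a noncoding RNA of the imprinted Dlk1 region (chromosome 12, 109541001 to 109571726, plus strand), had 5209 CPM in HFD high-mitochondrial barcodes against 759 CPM in HFD retained ones, and 4107 against 525 CPM in the CD library, log2 ratios of 2.78 (HFD) and 2.97 (CD). Neat1, the scaffold of nuclear paraspeckles (chromosome 19, 5824708 to 5845478, minus strand), had 502 CPM in HFD high-mitochondrial barcodes against 97.0 CPM in HFD retained ones, and 348 against 43.9 CPM in the CD library, log2 ratios of 2.37 (HFD) and 2.99 (CD). Kcnq1ot1, an imprinted noncoding RNA from the strand opposite Kcnq1, had log2 ratios of 2.5 (HFD) and 2.79 (CD), and the labels do not state whether counting used strand. Mirg, from the same imprinted region as Meg3, had 2.46 (HFD) and 2.95 (CD), and the small nucleolar RNA host Snhg11 2.37 (HFD) and 3.21 (CD). Tug1, a noncoding RNA found in both nucleus and cytosol, was lowest of the list at 0.90 (HFD) and 1.40 (CD) and was not called in the HFD library. Of 13 listed nuclear noncoding RNAs, 7 entered in each library: 6 of 7 were called higher in the HFD library and 7 of 7 in the CD library, with median log2 ratios of 2.46 in the HFD library and 2.95 in the CD library, and of 1.19 and 1.58 under TMM.

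Messages of splicing regulators and nuclear speckle proteins showed the same direction. All 20 listed genes were called higher in both libraries, with median log2 ratios of 1.87 in the HFD library and 1.98 in the CD library (0.60 and 0.61 under TMM), against 50.6% and 54.1% of all genes. Under TMM 3 (HFD) and 4 (CD) of the 20 were called higher, against 3.45% and 5.5% of all genes. Clk1, a kinase of splicing factors, had 397 CPM in HFD high-mitochondrial barcodes against 58.8 CPM in HFD retained ones, and 358 against 56.2 CPM in the CD library, log2 ratios of 2.76 (HFD) and 2.67 (CD). Pnisr, a speckle protein gene, had log2 ratios of 2.30 (HFD) and 2.37 (CD), Luc7l2, a splice-site factor, 2.04 (HFD) and 2.55 (CD), and Ddx5, an RNA helicase with the most UMIs of the list, 1.54 (HFD) and 1.86 (CD). Transcripts of some such genes, Clk1 among them, are known to keep introns and stay in the nucleus. Over all coding genes entered in both libraries, the 1468 with an annotated retained-intron transcript had a median log2 ratio of 1.06 (HFD) and 1.2 (CD), against 0.64 and 0.68 for the 607 without. The difference between these medians was smaller within genes at or over the median transcript length, at 1.37 against 1.10 (HFD) and 1.55 against 1.26 (CD).

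Transcript length went with the ratio. With genes in 4 groups of like size by their longest annotated transcript, from shortest to longest, the median log2 ratio was 0.11, 0.79, 1.18 and 1.41 in the HFD library and -0.22, 0.85, 1.35 and 1.58 in the CD library. The group of at most 1785 bases was thus below the all-gene median in both libraries and the group of 5656 bases or more above it. Spearman's rho across 2094 genes was 0.55 (HFD) and 0.60 (CD), given as a description since genes share libraries and depth. The number of exons went the same way, with medians of 0.26 (HFD) and 0.035 (CD) for genes of 1 to 4 exons and 1.46 and 1.64 for those of 17 or more.

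Several of the highest single genes were neuroendocrine or membrane genes. Grik5, a kainate receptor subunit, had 62.3 CPM in HFD high-mitochondrial barcodes against 6.77 CPM in HFD retained ones, and 78.3 against 8.32 CPM in the CD library, log2 ratios of 3.20 (HFD) and 3.23 (CD). Gria2, an AMPA receptor subunit, had log2 ratios of 2.89 (HFD) and 3.07 (CD), the inhibin subunit gene Inha 3.01 (HFD) and 3.31 (CD), and Rgs11, a regulator of G protein signalling, 2.84 (HFD) and 2.90 (CD). Akap8l, an anchoring protein of the nuclear matrix, had 3.01 (HFD) and 2.75 (CD) and Chka, choline kinase alpha, 2.66 (HFD) and 2.69 (CD). These genes were called higher in both libraries, among the 45.0% of genes so called. Lars2, a nuclear gene for the mitochondrial leucyl-tRNA synthetase, had 166 CPM in HFD high-mitochondrial barcodes against 11.4 CPM in HFD retained ones, and 88.9 against 7.97 CPM in the CD library, log2 ratios of 3.86 (HFD) and 3.48 (CD). The haemoglobin genes Hba-a1, Hba-a2 and Hbb-bs also ranked among the 12 highest, but 92.3% of the haemoglobin UMIs of HFD high-mitochondrial barcodes lay in 6 barcodes and 95.8% of those in CD high-mitochondrial barcodes in 1, and Hba-a1 and Hba-a2 are near-identical copies.

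Of the stress gene lists, the immediate early genes had a share called higher above that of all genes. Of the immediate early genes, which are transcribed within minutes of stimulation or dissociation, 17 of 18 (HFD) and 13 of 14 (CD) entered genes were called higher, with medians of 1.89 in the HFD library and 1.88 in the CD library (0.62 and 0.51 under TMM, where 1 of 18 and 1 of 14 were called higher). Fos, a subunit of the AP-1 transcription factor, had 889 CPM in HFD high-mitochondrial barcodes against 254 CPM in HFD retained ones, and 779 against 190.0 CPM in the CD library, log2 ratios of 1.81 (1.75 to 1.86) and 2.04 (1.93 to 2.14). Jun, its partner, had log2 ratios of 1.97 (HFD) and 2.01 (CD), Fosb 2.72 (HFD) and 2.47 (CD) and the zinc finger factor Egr1 2.13 (HFD) and 2.16 (CD). Their share called was above the 50.6% and 54.1% of all genes.

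Heat shock chaperones differed among themselves. The inducible chaperones Hspa1a and Hspa1b, close copies whose reads may be shared, were called higher, Hspa1a with log2 ratios of 2.22 (HFD) and 2.49 (CD) and Hspa1b of 2.09 (HFD) and 2.26 (CD). Hsp90ab1 and Hspa8, which are made constitutively, were not called and lay below the all-gene median, Hsp90ab1 at 0.75 (HFD) and 0.25 (CD) and Hspa8 at 0.78 (HFD) and 0.30 (CD). Over the list 7 of 12 (HFD) and 5 of 11 (CD) were called higher, near the share of all genes, with medians of 1.31 in the HFD library and 0.76 in the CD library, and of 0.046 and -0.61 under TMM.

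For genes of protein folding in the endoplasmic reticulum the counts were 4 of 17 (HFD) and 10 of 19 (CD), with medians of 0.81 in the HFD library and 1.10 in the CD library, which turned to -0.46 and -0.26 under TMM. The list holds Hspa5, the main chaperone of that compartment, at 1.15 (HFD) and 1.45 (CD), Hsp90b1 at 0.83 (HFD) and 1.2 (CD), Hyou1 at 1.06 (HFD) and 1.65 (CD) and Sel1l, of the degradation machinery, at 1.02 (HFD) and 1.89 (CD). The share called was below that of all genes in the HFD library and near it in the CD library. Of the 17 genes of the apoptosis and p53 list 4 entered in each library and 2 were called higher, Mcl1, an anti-apoptotic gene, at 1.27 (HFD) and 1.34 (CD) and Trp53inp1, a p53 target, at 1.5 (HFD) and 1.61 (CD). Of the 12 genes of the mitophagy and hypoxia list 4 entered and 2 were called higher in each library, Txnip, a thioredoxin inhibitor, at 1.41 (HFD) and 1.45 (CD) and Vegfa, an angiogenic factor, at 1.46 (HFD) and 1.72 (CD). These counts of 2 of 4 are near the shares of all genes called (50.6% and 54.1%), and under TMM 0 genes of either list were called higher. Of 15 mitochondrial chaperone, import and protease genes 0 of 7 (HFD) and 1 of 7 (CD) were called higher, and their medians of 0.52 in the HFD library and 0.092 in the CD library lay below the all-gene median. Of 13 factors of mitochondrial DNA expression 1 entered in each library and was not called.

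The lower end held the most abundant beta cell RNAs. Iapp, islet amyloid polypeptide, had 28143.5 CPM in HFD high-mitochondrial barcodes against 66095 CPM in HFD retained ones, and 34173 against 73710.1 CPM in the CD library, log2 ratios of -1.23 (-1.24 to -1.22) and -1.11 (-1.12 to -1.09). Ins1 had 93593 CPM in HFD high-mitochondrial barcodes against 172027 CPM in HFD retained ones, and 88801 against 163656 CPM in the CD library. Ins2 had 287272 CPM in HFD high-mitochondrial barcodes against 458530 CPM in HFD retained ones, and 300582 against 449534 CPM in the CD library. Their log2 ratios were -0.88 (HFD) and -0.88 (CD) for Ins1 and -0.67 (HFD) and -0.58 (CD) for Ins2, short of the 2 times used for a call. The other genes at the lower end encode small proteins. Sec61b, a subunit of the translocon through which secretory proteins enter the endoplasmic reticulum, had log2 ratios of -1.0 (HFD) and -0.79 (CD) and was called lower in the HFD library, as was Dapl1 at -1.09 (HFD) and -1.87 (CD). Sec61g of the same complex had -0.55 (HFD) and -0.86 (CD), Spcs1 of the signal peptidase -0.85 (HFD) and -0.83 (CD), Sec11c, its catalytic subunit, -0.89 (HFD) and -0.81 (CD), and Dad1 of the oligosaccharyltransferase -0.57 (HFD) and -0.72 (CD). Usmg5 and Atp5g2 of ATP synthase had -0.73 (HFD) and -0.85 (CD) for Usmg5 and -0.53 (HFD) and -0.82 (CD) for Atp5g2, Enho, which encodes a small secreted peptide, -0.58 (HFD) and -0.63 (CD), and Abracl -0.64 (HFD) and -0.90 (CD). The channel subunit Sec61a1 was called higher at 1.51 (HFD) and 1.89 (CD), and the whole translocation list of 21 genes had medians of -0.049 in the HFD library and -0.043 in the CD library.

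Genes of the ribosome, of translation and of the nuclear-encoded respiratory chain lay below the all-gene median. Over 54 nuclear genes of oxidative phosphorylation the median log2 ratio was -0.25 in the HFD library and -0.54 in the CD library (-1.51 and -1.91 under TMM), with 1 called higher in the HFD library and 1 called lower in the CD library. Ribosomal protein genes had medians of 0.13 in the HFD library and -0.35 in the CD library with 0 of 79 called in either library, and translation factors had 0.18 in the HFD library and -0.26 in the CD library with 0 of 15 called. Under TMM most of these genes were called lower, against 21.4% (HFD) and 28.0% (CD) of all genes: 50 (HFD) and 54 (CD) of the 54 genes of oxidative phosphorylation, 64 and 78 of the 79 ribosomal protein genes, with medians of -1.14 and -1.72, and 10 and 14 of the 15 translation factors, with medians of -1.09 and -1.62. Of the secretory granule genes 7 of 18 (HFD) and 10 of 18 (CD) were called higher, a share below that of all genes in the HFD library and near it in the CD library, with medians of 0.72 in the HFD library and 1.18 in the CD library (-0.55 and -0.19 under TMM). Among them were Snap25, of the fusion machinery, at 1.63 (HFD) and 2.20 (CD), and Ptprn2, a granule membrane protein, at 2.06 (HFD) and 1.89 (CD), whereas Chga, chromogranin A, had 0.80 (HFD) and 1.27 (CD). The glycolysis list had medians of 0.58 in the HFD library and 0.078 in the CD library. Of 12 cytoskeleton genes 10 entered and 3 of 10 (HFD) and 0 of 10 (CD) were called higher, below the 50.6% and 54.1% of all genes, and under TMM 0 were called higher and 1 (HFD) and 6 (CD) lower.

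Since the retained barcodes were much deeper, insulin-class high-mitochondrial barcodes were also compared with retained barcodes of the same depth, a comparison chosen after seeing the data. Barcodes low in hormone were left out. Equal numbers of high-mitochondrial and retained barcodes were drawn at random within narrow bands of UMIs outside mitochondrial genes. This gave 490 (HFD) and 202 (CD) barcodes per set, from 2185 and 642 high-mitochondrial ones. Those without enough retained barcodes at their depth dropped out. The drawn ones were thus deeper and lower in mitochondrial share than all insulin-class high-mitochondrial barcodes, which had medians of 955 (HFD) and 1094.5 (CD) UMIs and 51.7% and 43.0%. Median depth was then 2848.5 against 2875.5 UMIs (HFD) and 2549.5 against 2594.5 (CD), the median mitochondrial share was 23.0% against 8.70% and 20.4% against 11.6%, and insulin took 45.4% against 46.9% and 45.7% against 48.7% of these UMIs. The retained barcodes so matched differed in other ways, whose part in the values below was not tested. In the CD library their summed alpha markers stood at 16368 CPM and their PP markers at 19755 CPM, against 4548 and 4119 CPM in the high-mitochondrial barcodes, and their median share of 11.6% falls in the band most like free RNA. In the HFD library the alpha markers had 8619 CPM in high-mitochondrial against 5979 CPM in matched retained barcodes and the PP markers 11458 against 10819 CPM. Calls were fewer then: 3.77% of 2227 HFD genes and 19.0% of 1332 CD genes were called higher, 2.78% and 11.0% lower, and the all-gene medians were 0.17 (HFD) and 0.43 (CD).

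Nuclear noncoding RNAs stayed above the all-gene median at matched depth, and the medians of the immediate early and heat shock lists lay below it. Malat1 had 60023 CPM in HFD high-mitochondrial barcodes against 40969 CPM in depth-matched HFD retained ones, and 53872 against 26861 CPM in the CD library. Its log2 ratios were 0.55 (HFD) and 1.0 (CD), with Meg3 at 0.91 (HFD) and 1.07 (CD), Kcnq1ot1 at 0.76 (HFD) and 1.23 (CD) and Neat1 at 1.14 (HFD) and 1.87 (CD). The medians of the noncoding list were 0.76 (HFD) and 1.23 (CD) with 2 of 7 and 5 of 5 called higher, and those of the splicing list 0.60 (HFD) and 0.88 (CD) with 1 of 20 and 4 of 20 called higher, near the 3.77% and 19.0% of all genes. Immediate early genes had medians of -0.35 (HFD) and 0.13 (CD), with 0 called higher and 1 lower in each library. Fos had log2 ratios of -0.41 (HFD) and -0.15 (CD), Jun -0.27 (HFD) and -0.33 (CD) and Hspa1a -0.53 (HFD) and -0.54 (CD), whereas Egr1 had 0.061 (HFD) and 0.68 (CD), and the heat shock list had medians of -0.22 (HFD) and -0.54 (CD). The summed levels of Fos, Jun and Hspa1a were thus higher in the depth-matched retained barcodes by less than 2 times, with an interval that held no difference for Fos in the CD library (-0.37 to 0.084). With barcodes low in hormone kept in the match, retained barcodes held 342 of them in 654 (HFD) and 92 in 235 (CD), and the medians were 1.10 and 1.65 for the noncoding list and -1.27 and -1.74 for the immediate early list.

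Other groups moved further from the all-gene median or closer to it at matched depth. The endoplasmic reticulum folding genes had medians of 0.34 (HFD) and 0.58 (CD), with Hspa5 at 0.67 (HFD) and 0.90 (CD), and the granule genes 0.49 (HFD) and 0.68 (CD), with Snap25 at 1.10 (HFD) and 1.27 (CD). Ribosomal protein genes lay below 0, at -0.63 (HFD) and -1.09 (CD), and 54 of 79 were called lower in the CD library against 0 in the HFD library. Nuclear genes of oxidative phosphorylation had -0.58 (HFD) and -0.82 (CD), and translation factors -0.46 (HFD) and -0.85 (CD). Iapp had -0.91 (HFD) and -0.77 (CD), whereas Ins1 had -0.19 (HFD) and -0.14 (CD) and Ins2 -0.0046 (HFD) and -0.080 (CD), in barcodes that had been filtered on their hormone share. With barcodes low in hormone kept, insulin took 39.2% of UMIs outside mitochondrial genes in high-mitochondrial against 25.1% in matched retained barcodes of the HFD library and 41.3% against 31.0% in the CD library, so the insulin values depend on that filter. Tmsb4x, an actin-binding peptide gene, had -0.75 (HFD) and -1.96 (CD), against 1.0 (HFD) and 0.26 (CD) before matching.

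At matched depth 27 of 1289 genes (2.09%) were called higher in both libraries and 5 (0.388%) lower in both. The following were picked from these after their values were seen. Neat1 had 467 against 211 CPM (HFD) and 294 against 80.4 CPM (CD). Robo2, an axon guidance receptor that also acts in islet architecture, had log2 ratios of 1.0 (HFD) and 1.13 (CD). The prolactin receptor gene Prlr had 1.03 (HFD) and 1.22 (CD), Entpd3, an ectonucleotidase of the beta cell surface, 1.24 (HFD) and 1.03 (CD), and the cationic amino acid transporter gene Slc7a2 1.0 (HFD) and 1.13 (CD). Nuclear proteins were represented by Safb, a scaffold attachment factor, at 1.02 (HFD) and 1.06 (CD) and Mdm4, a p53 inhibitor, at 1.30 (HFD) and 1.08 (CD). The 5 lower genes were Clps (pancreatic colipase) at -1.42 (HFD) and -3.58 (CD), Crip1 at -1.2 (HFD) and -1.29 (CD), S100a10 at -1.13 (HFD) and -1.22 (CD), the tubulin cofactor gene Tbca at -1.06 (HFD) and -1.65 (CD) and the ATP synthase subunit gene Usmg5 at -1.21 (HFD) and -1.16 (CD). Clps is an acinar secretion, and the summed acinar markers stood at 146 against 201 CPM (HFD) and 269 against 2651 CPM (CD) in the matched barcodes, whose part in this was not tested.

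**Figure D4:**
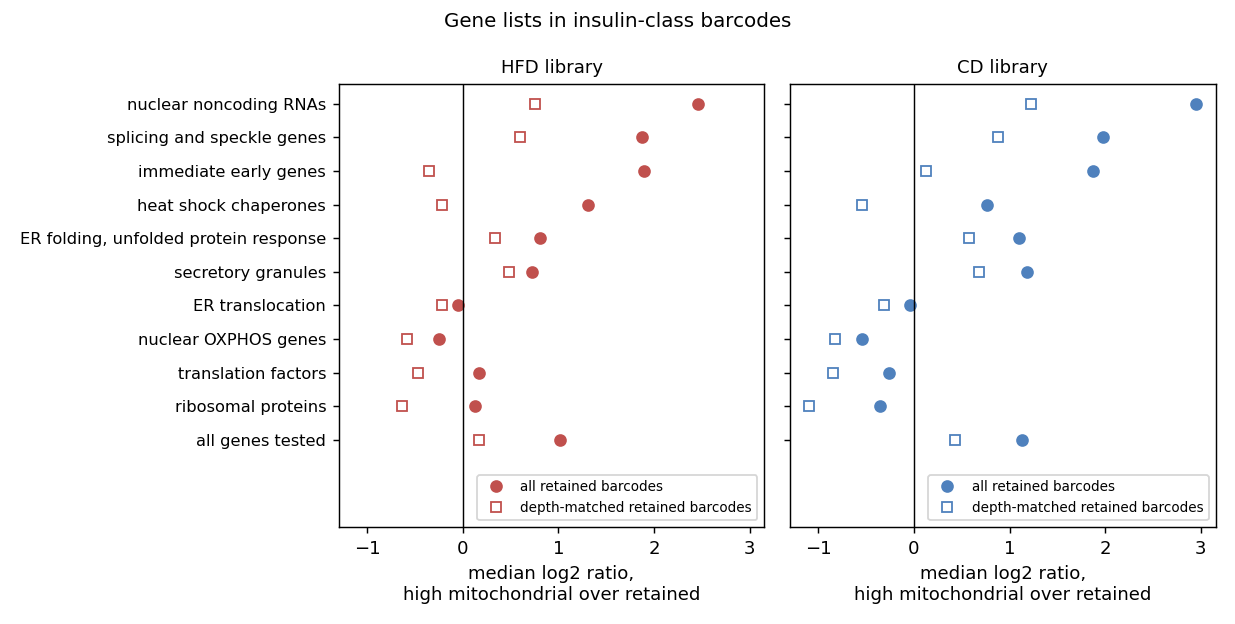
Median log2 ratio of high-mitochondrial over retained insulin-class barcodes for 10 gene lists and all genes tested, HFD library left, with 1 library each and no error bar. Filled circles use all retained barcodes and open squares the depth-matched retained barcodes without those low in hormone: nuclear noncoding RNAs stay above the all-gene median, at 0.76 (HFD) and 1.23 (CD), and immediate early genes lie below it, at -0.35 (HFD) and 0.13 (CD).

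Graded by mitochondrial share, the nuclear RNAs peaked in the middle and not at the top. Insulin-class barcodes were summed at shares of at most 5, 5 to 10, 10 to 15, 15 to 25, 25 to 50, 50 to 75 and 75 to 100%. In that order Malat1 had 9675, 12704, 31281.5, 64445, 74979.6, 39271 and 26783 CPM in the HFD library and 7566, 15722, 21416, 53043, 77534, 42890.3 and 12689 CPM in the CD library. Meg3 was highest at 25 to 50% too, with 6391 CPM (HFD) and 6601 CPM (CD), against 4074 and 2011.5 CPM at 75 to 100%. Fos had 219.7, 382, 643, 933, 1056, 565 and 462 CPM over the bands of the HFD library and 182, 373, 424, 774, 987, 544 and 285 CPM in the CD library. The peak of Malat1, Meg3 and Fos thus lay at 25 to 50% in both libraries.

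Hormone RNA ran the other way. Ins2 had 464586, 436749, 379574, 302968, 246131, 304423 and 347916 CPM over the bands of the HFD library and 451402, 414107, 376023, 334108, 214567, 281816 and 389393 CPM in the CD library, lowest at 25 to 50%. Iapp was lowest at 15 to 25% in the HFD library (22739.6 CPM) and at 25 to 50% in the CD library (26732 CPM), and stood at 49826 and 60999 CPM in the highest band. Chga was highest at 15 to 25% with 5267 (HFD) and 9745 CPM (CD). Lars2 was highest in the top band, at 616 CPM (HFD) and 369 CPM (CD) at 75 to 100%, against 9.89 and 7.69 CPM in the lowest band. The top band held 116827 (HFD) and 59657 (CD) UMIs outside mitochondrial genes, so its Lars2 levels rest on few UMIs.

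Likeness to free RNA was lowest at 25 to 50% and highest in a retained band. From the lowest band to the highest, the part of the RNA profile outside mitochondrial genes that was shared with free RNA was 81.9, 85.8, 88.6, 77.4, 71.7, 81.7 and 85.3% in the HFD library and 86.7, 90.4, 91.1, 76.0, 61.8, 73.1 and 86.2% in the CD library. The retained band of 10 to 15% was thus the most alike in both libraries, and all retained insulin-class barcodes together shared 82.9% (HFD) and 87.0% (CD). Gcg, which insulin-class cells should lack, had 3001, 3668, 4217, 9145, 10898, 14568 and 13053.5 CPM over the bands of the HFD library and 2855, 1789, 16274, 5244, 6642, 10950.7 and 10761.5 CPM in the CD library, against 19248 (HFD) and 17655 CPM (CD) in free RNA. Its highest level lay at 50 to 75% in the HFD library and in the retained band of 10 to 15% in the CD library. The median number of UMIs outside mitochondrial genes in the highest band was 408 (HFD) and 397 (CD). Malat1 and Meg3 in that band of the HFD library, at 26783 and 4074 CPM, were above their free RNA levels of 16010.1 and 977 CPM. In the CD library Malat1 was not, at 12689 against 14073.5 CPM, and Meg3 was, at 2011.5 against 567 CPM.

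**Figure D5:**
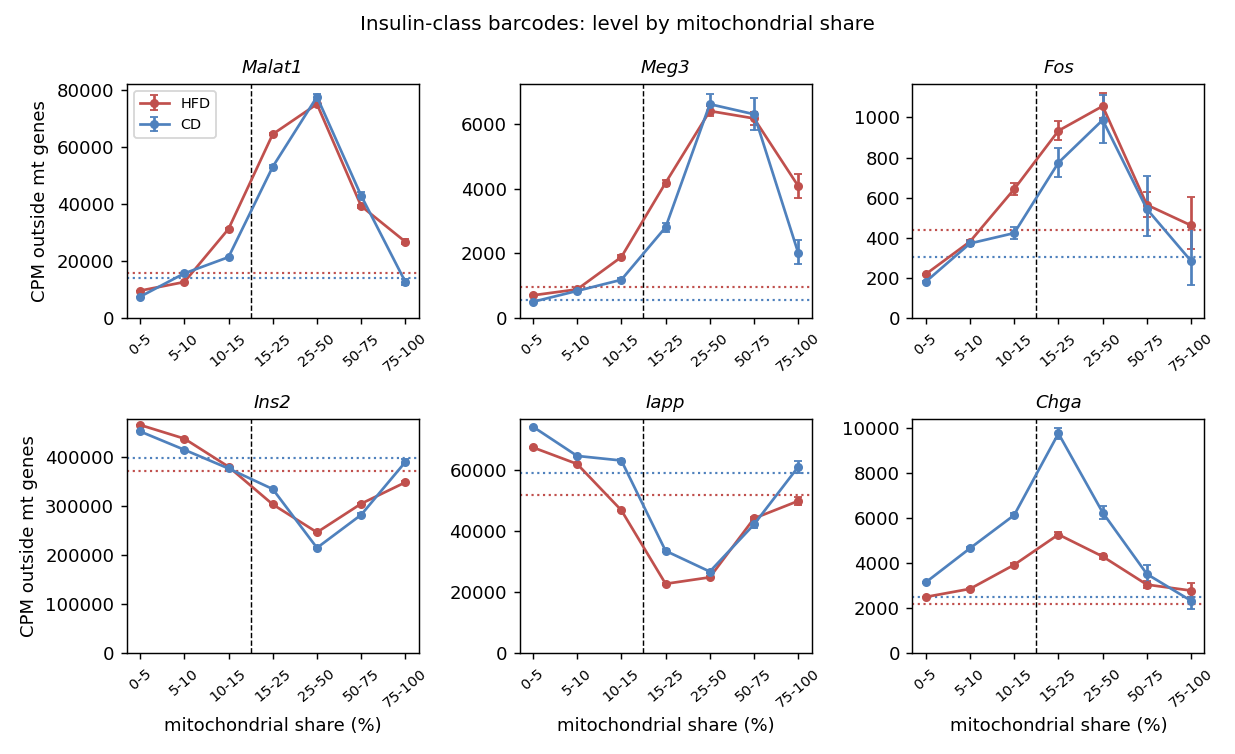
Level of 6 genes in insulin-class barcodes (CPM outside mitochondrial genes, linear axes from 0) by mitochondrial share, HFD in red and CD in blue. Points are sums over 1 library with exact 95% counting intervals, dotted lines the level in free RNA of the same library and the dashed line the 15% limit: Malat1, Meg3 and Fos peak at 25 to 50% and Ins2 is lowest there.

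When each insulin-class barcode was thinned to 300 UMIs outside mitochondrial genes, high-mitochondrial barcodes were the more diverse. The median number of genes was 157 (HFD) and 162.5 (CD) at 15 to 50% and 126 and 117 above 50%, against 83 and 89 in retained barcodes. Unthinned, the same medians were 753 and 768.5, 226 and 174, and 2752 and 3058, so retained barcodes had the most genes before thinning and the fewest after it, while barcodes at 15 to 50% had more than those above 50% both times. Thinning left out 10 HFD and 18 CD high-mitochondrial barcodes and no retained one. At that depth a Gcg UMI was seen in 84.6% of HFD and 72.5% of CD high-mitochondrial barcodes, against 23.1% and 22.4% of retained ones, although alpha cells and not beta cells make this hormone.

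The mitochondrial transcripts themselves stood in somewhat different proportions. Of the mitochondrial UMIs of insulin-class barcodes, mt-Co1, a subunit of cytochrome oxidase, made up 14.8% in HFD high-mitochondrial against 18.4% in HFD retained barcodes and 16.1% against 20.5% in the CD library. mt-Atp6, an ATP synthase subunit whose gene overlaps mt-Atp8, made up 21% against 19.1% (HFD) and 22.3% against 19.3% (CD). The cytochrome oxidase subunit mt-Co3 had 20.6% against 18.5% and 17% against 16.1%. The share of mt-Co1 was thus lower and those of mt-Atp6 and mt-Co3 higher in high-mitochondrial barcodes of both libraries, with counting intervals that do not overlap.

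Among the complex I subunits, mt-Nd4l, which overlaps mt-Nd4, had 1.80% against 1.39% (HFD) and 3.01% against 1.99% (CD). mt-Nd6, the one protein gene on the other strand, had 0.0851% against 0.0497% and 0.158% against 0.0764%. mt-Nd1 ran the other way, with 2.74% against 3.26% (HFD) and 1.93% against 2.55% (CD). Free RNA had far less mt-Nd4l than either set, 0.332% (HFD) and 0.592% (CD) of its mitochondrial UMIs, and also less mt-Nd5, at 0.511% and 0.681% against 1.33% and 1.69% in high-mitochondrial barcodes. For mt-Co1, mt-Atp6 and mt-Co3 free RNA lay on the side to which high-mitochondrial barcodes differed from retained ones. It had mt-Co1 at 15.4% (HFD) and 17.4% (CD), mt-Atp6 at 22.8% and 22.2% and mt-Co3 at 23.9% and 19.4%. For mt-Atp8 and mt-Nd6 free RNA lay on the opposite side. High-mitochondrial barcodes had 0.261% mt-Atp8 against 0.242% in retained ones (HFD) and 0.316% against 0.267% (CD), and free RNA 0.0806% and 0.0992%. Its mt-Nd6 share was 0.0297% (HFD) and 0.0623% (CD), below both sets. mt-Cytb, of complex III, was lower in high-mitochondrial than in retained barcodes, at 11.5% against 12.2% (HFD) and 10.5% against 11.6% (CD). Its counting intervals did not overlap in either library.

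The glucagon class offered 98 HFD and 29 CD high-mitochondrial barcodes, with far fewer UMIs behind each level. The all-gene median log2 ratio was below 0 here, -0.18 (HFD) and -0.83 (CD), unlike in the insulin class. High-mitochondrial barcodes of this class held 369721 (HFD) and 52556 (CD) UMIs outside mitochondrial genes, against 15191091 and 12845809 in retained ones. To reach the UMI minimum, a gene higher in high-mitochondrial barcodes thus needed a larger CPM than a gene lower there. The entry rule here favours genes lower in high-mitochondrial barcodes, so the sign of these medians cannot show a shift in RNA. Of 782 genes entered in both libraries, 4 (0.512%) were called higher in both, Meg3, Kcnq1ot1, Ins1 and Ins2, and 0 lower in both. Called in single libraries were 1.1% (HFD) and 1.02% (CD) higher and 0.676% and 15.8% lower, shares that depend on the same entry rule. Malat1 had 46554 CPM in HFD high-mitochondrial barcodes against 24962 CPM in HFD retained ones, and 98523.5 against 21328 CPM in the CD library, log2 ratios of 0.90 (HFD) and 2.21 (CD), the same direction as in the insulin class, and Meg3 had log2 ratios of 1.04 (HFD) and 2.24 (CD). Gcg itself had -0.26 (HFD) and -0.61 (CD), Ttr (transthyretin, abundant in alpha cells) -0.54 (HFD) and -0.48 (CD) and the peptide hormone gene Pyy -0.50 (HFD) and -0.71 (CD). Ppy had -0.54 (HFD) and -0.52 (CD). Ins1 had 1.11 (HFD) and 2.11 (CD) and Ins2 1.06 (HFD) and 1.94 (CD). Insulin is foreign to alpha cells and was the most abundant hormone RNA outside the barcodes of cells, with Ins2 at 370121 (HFD) and 396744 CPM (CD) in free RNA. The small respiratory chain genes Cox7c, at -0.47 (HFD) and -1.5 (CD), and Cox8a, at -0.34 (HFD) and -0.82 (CD), stood below 0 as the median of all genes did, and Cox8a was at that median in the CD library. In the somatostatin class, with 54 HFD and 7 CD barcodes, Malat1 did not share that direction and had log2 ratios of -0.038 (HFD) and -0.56 (CD).

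Between the libraries, insulin-class high-mitochondrial barcodes of the HFD library had 98 of 2691 genes (3.64%) called higher than those of the CD library and 62 (2.3%) called lower, with an all-gene median log2 ratio of -0.062. In retained barcodes, 10 (0.84%) of 1190 genes were called higher and 12 (1.01%) lower. Among the genes called lower in HFD in both sets were metallothioneins, small metal-binding proteins induced by zinc and glucocorticoids. Mt1 had 682 CPM in HFD against 3285 CPM in CD high-mitochondrial barcodes, and 679 against 3927 CPM in retained ones, log2 ratios of -2.27 and -2.53. Mt2 had -2.23 and -2.56. Higher in HFD in both sets were Bc1, a small cytoplasmic RNA, with 143 against 12.6 CPM in high-mitochondrial barcodes and log2 ratios of 3.51 there and 2.21 in retained ones, and Dapl1, with 2.89 and 2.11. Gpx3, the secreted glutathione peroxidase, had 285 against 77.3 CPM in high-mitochondrial barcodes, a log2 ratio of 1.88, against 0.86 in retained ones.

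Part of the list belonged to other cell types. Tagln and Acta2, of contractile cells, had 201 against 1 UMI and 179 against 3 UMIs in HFD and CD high-mitochondrial barcodes, and 67.7% and 62.6% of the HFD UMIs lay in barcodes low in hormone. For Kdr and Btnl9, of endothelial cells, these shares were 79.5% and 77.8%, and for Rgs5 and Myl9, of pericytes and smooth muscle, 46.2% and 55.6%. By contrast 5.37% of the Bc1, 1.5% of the Dapl1 and 4.94% of the Mt1 UMIs lay in such barcodes. Lower in HFD were the acinar genes Zg16 at -3.88, Ctrb1 at -2.28, Rnase1 at -2.46, Cpb1 at -2.41, Cela2a at -2.26 and Try4 at -2.23. The 5 highest barcodes held from 37.3% (Try4) to 78.4% (Zg16) of the CD UMIs of these genes. Acinar RNA differed in the same direction in retained barcodes, where Ctrb1 had -4.54. Dcn, of fibroblasts, had -2.24 with 99.2% of its CD UMIs in low-hormone barcodes. Without those barcodes 33 HFD UMIs stood against 1 CD UMI of Dcn, a log2 ratio of 3.34 (0.77 to 8.69). Dmbt1, a secreted epithelial protein, had -2.90 with 98.2% of its CD UMIs in 5 barcodes. The haemoglobin gene Hbb-bt had 2.29 with 93.9% of its HFD UMIs in 5 barcodes. Without barcodes low in hormone 55 genes were called higher and 51 lower, and Mt1, Bc1, Dapl1 and Gpx3 had -2.30, 3.68, 2.88 and 2.74.

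Gene groups showed small differences between the libraries in high-mitochondrial barcodes. All 19 entered genes of endoplasmic reticulum folding had HFD over CD log2 ratios below 0, with a median of -0.49, against 10 of 14 and -0.13 in retained barcodes. Of the 19, 1 was called lower, against 2.3% of all genes. Ribosomal protein genes ran the other way, with 75 of 79 above 0 and a median of 0.39, against 19 of 79 and -0.10 in retained barcodes, and 1 was called higher. Of 12 heat shock chaperones 4 were called higher, against 3.64% of all genes, with a median of 0.62. In retained barcodes 6 of that list entered, with a median of 0.11. Of 18 immediate early genes 2 were called higher, with a median of 0.48, and in retained barcodes 8 entered, with 0.37. The medians of the 2 sets thus rest on different genes. With HFD and CD barcodes matched on mitochondrial share the 4 medians were -0.52, 0.37, 0.63 and 0.40. Nuclear noncoding RNAs had a median of -0.17 with 0 of 7 called.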

How the data were processed

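Single-cell libraries of dispersed islets were deposited as raw UMI counts per gene and barcode, 1 matrix per diet. Cell Ranger 6.0.1 and the build mm10 are named in the submitters' processing notes, whereas the file headers name software version 3.0.2, and the annotation release and strand setting are not given in the sources used here. Positions and transcript features come from GENCODE M21 (GRCm38, the same build), which matched 30934 of 31053 gene IDs (99.6%).

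The high-mitochondrial barcodes, the gene lists and the comparisons were chosen with earlier results of these data known. UMIs were summed per library, set and hormone class and scaled to 1000000 UMIs outside mitochondrial genes. Shares have exact Clopper-Pearson and ratios exact conditional binomial 95% intervals, and with 1 library per diet there is no test. With a count of 0 no ratio is given. Named genes are, by interval bound nearest to 1 in both libraries, the 12 highest and 12 lowest in the insulin class, 8 and 8 in the glucagon class and 10 and 10 for HFD over CD, without ribosomal protein genes, plus list members chosen by UMIs and bound. Those of them that are not discussed are left to counts and medians. Doublets were not removed, and scores from Scrublet were used in 1 alternative. The barcodes of 10 to 100 UMIs served as free RNA.

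Tools were Python 3.11.15, numpy 2.4.6, scipy 1.17.1, scanpy 1.11.5 and R 4.3.3, with edgeR 4.0.16 (TMM) and DESeq2 1.42.0 (median of ratios) for scaling factors alone. Tested on simulated data of 31040 genes, 49 or 50 of 50 genes changed by 4, 3, 0.333 or 0.25 times were called for high-mitochondrial over retained barcodes of each library, and 46 to 50 for HFD over CD, with 0 unchanged genes called. The counts were Poisson draws from 1 profile, with changed genes picked to have enough UMIs. Spread between barcodes and the shift in RNA makeup seen in the data were left out. The simulation thus checks the calculation and not the calls made here.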

Additional observations from a re-analysis of the deposited data

Results flagged for a closer look

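The median log2 ratio of high-mitochondrial over retained insulin-class barcodes had opposite signs in the HFD and CD libraries for 4 gene lists, and the difference between libraries was not tested. Ribosomal protein genes had 0.13 in the HFD library and -0.35 in the CD library. Translation factors had 0.18 in the HFD library and -0.26 in the CD library. Histones and chromatin proteins had 0.37 in the HFD library and -0.20 in the CD library, with 1 gene called higher in the HFD library and 0 in the CD library. Antioxidant and metal response genes had 0.032 in the HFD library and -0.19 in the CD library, with 2 and 1 genes called higher. All 8 medians lay below the all-gene median of their library. The signs depend on the scaling: under TMM all 4 lists were below 0 in both libraries, at -1.14 (HFD) and -1.72 (CD) for ribosomal protein genes, -1.09 and -1.62 for translation factors, -0.90 and -1.56 for histones and chromatin proteins and -1.24 and -1.56 for antioxidant and metal response genes.

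Barcodes of 10 to 100 UMIs, which the comparisons use only as a measure of free RNA, had 19.3% mitochondrial UMIs in the HFD library and 8.80% in the CD library. Barcodes with at least 1500 UMIs that had at most 15% mitochondrial UMIs but under 500 genes belong to neither set and numbered 54 (HFD) and 245 (CD).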

How the results depend on the processing

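The HFD minus CD difference in the share of high-mitochondrial barcodes was above 0 under every alternative tried: 6.73 with a limit of 10%, 8.80 with a limit of 20%, 7.75 with a limit of 25%, 3.09 with a minimum of 3000 UMIs, 11.2 with a minimum of 800 UMIs, 4.17 with at least 500 genes asked of them and 10.9 with the highest doublet scores removed (main 9.97 points). The insulin share of HFD high-mitochondrial barcodes (main 92.9%) was 87.0 with a limit of 10%, 96.2 with a limit of 20%, 98.0 with a limit of 25%, 78.1 with a minimum of 3000 UMIs, 97.2 with a minimum of 800 UMIs, 85.4 with at least 500 genes asked of them, 89.4 with the largest hormone at least 2 times the next, 75.6 with the class called after free RNA was subtracted, 94.0 with the highest doublet scores removed, 86.4 with barcodes of 15 to 50% and 99.8 with barcodes above 50%. That of CD ones (main 94.2%) was 97.0 with a limit of 20%, 98.4 with a limit of 25%, 97.9 with a minimum of 800 UMIs, 90.7 with at least 500 genes asked of them, 90.7 with the largest hormone at least 2 times the next, 83.6 with the class called after free RNA was subtracted, 90.2 with barcodes of 15 to 50% and 99.7 with barcodes above 50%. The 943 genes called higher in both libraries became 302 with a limit of 10%, 437 with a limit of 25%, 398 with a minimum of 3000 UMIs, 312 with scaling to all UMIs, 332 with scaling to UMIs outside mitochondrial and hormone genes, 45 with TMM factors, 72 with median-of-ratios size factors, 5021 with no minimum CPM and at least 10 UMIs, 175 with retained barcodes matched on depth, 53 with barcodes above 50% and 27 with the depth match without barcodes low in hormone. The 1 called lower in both became 0 with a limit of 10%, 0 with a limit of 25%, 0 with a minimum of 800 UMIs, 100 with scaling to all UMIs, 89 with scaling to UMIs outside mitochondrial and hormone genes, 450 with TMM factors, 379 with median-of-ratios size factors, 17 with every barcode counted alike, 2 with no minimum CPM and at least 10 UMIs, 43 with free RNA subtracted from the levels, 445 with retained barcodes matched on depth, 0 with barcodes above 50% and 5 with the depth match without barcodes low in hormone. The 98 genes higher in HFD became 63 with a limit of 25%, 198 with a minimum of 3000 UMIs, 64 with a minimum of 800 UMIs, 29 with the class called after free RNA was subtracted, 55 with every barcode counted alike, 495 with no minimum CPM and at least 10 UMIs, 160 with free RNA subtracted from the levels, 65 with barcodes above 50% and 55 with barcodes low in hormone left out, and the 62 lower in HFD became 24 with a limit of 10%, 34 with a minimum of 3000 UMIs, 41 with a minimum of 800 UMIs, 370 with no minimum CPM and at least 10 UMIs, 113 with free RNA subtracted from the levels and 6 with barcodes above 50%. The cause of these shifts was not tested, except that a scaling moves all genes together and a stricter minimum enters fewer.

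Log2 ratios of called genes turned sign as follows, for high-mitochondrial over retained barcodes unless stated, and the cause was not tested. With a limit of 25%: Hbb-bt -2.24 (HFD over CD). With a minimum of 3000 UMIs: Hba-a2 -1.34, Hbb-bs -1.65 (CD) and Dmbt1 2.80 (HFD over CD). With at least 500 genes asked of them: Hba-a1 -0.15, Hba-a2 -2.04, Hbb-bs -0.65 (CD). With the class called after free RNA was subtracted: Dcn 3.32 (HFD over CD). With TMM factors: Actb -0.095, Hspa5 -0.11, Hyou1 -0.21, Sel1l -0.25, Tmsb4x -0.27 (HFD) and Atf5 -0.33, Chga -0.096, Hsp90b1 -0.16, Mcl1 -0.032 (CD). With median-of-ratios size factors: Hspa5 -0.0034, Hyou1 -0.099, Sel1l -0.14, Tmsb4x -0.16 (HFD) and Atf5 -0.20, Hsp90b1 -0.039 (CD). With every barcode counted alike: Actb -0.44, Mcl1 -0.15, Tmsb4x -0.82 (HFD) and Mcl1 -0.11 (CD). With free RNA subtracted from the levels: Hbb-bt -1.44 (HFD over CD). With retained barcodes matched on depth: Actb -1.48, Egr1 -0.52, Fos -1.0, Fosb -0.051, Hba-a1 -0.10, Hba-a2 -0.17, Hbb-bs -0.17, Hspa1a -0.78, Hspa1b -0.26, Jun -0.90, Mcl1 -1.31, Tmsb4x -1.87, Tuba1a -0.64, Txnip -0.75 (HFD) and Egr1 -0.070, Fos -0.91, Fosb -0.16, Hba-a1 -0.99, Hbb-bs -2.58, Hspa1a -0.20, Hspa1b -0.16, Jun -1.22, Mcl1 -0.87, Txnip -1.45 (CD). With barcodes above 50%: Actb -0.022 (HFD) and Chga -0.065, Hsp90b1 -0.29, Hspa5 -0.28, Hyou1 -0.72, Mcl1 -2.17, Rpn1 -0.59 (CD) and Acta2 -0.56 (HFD over CD). With barcodes low in hormone left out: Dcn 3.34 (HFD over CD). With the depth match without barcodes low in hormone: Actb -0.74, Fos -0.41, Hspa1a -0.53, Jun -0.27, Mcl1 -0.21, Tmsb4x -0.75, Tuba1a -0.19, Txnip -0.18 (HFD) and Fos -0.15, Gpx3 -1.86, Hbb-bs -2.32, Hspa1a -0.54, Jun -0.33, Txnip -0.44 (CD).

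Over 4341 alternative values, 1834 stayed within their counting interval or count range, 2432 moved past it, and 75 changed sign.

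The restrictions to 15 to 50%, to above 50%, to barcodes not low in hormone and the depth match without them were chosen after seeing the data. No paired analysis was possible because each diet has 1 library, which carries the same number in both diets, and for the same reason no library could be left out. High-mitochondrial barcodes hold few UMIs outside mitochondrial genes each, so levels are sums over barcodes, and the glucagon, somatostatin and pancreatic polypeptide classes rest on few of them.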

Other observations

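The makeup of the libraries by hormone class depended on whether high-mitochondrial barcodes were counted. Together with retained barcodes, the insulin class held 75.8% (HFD) and 77.8% (CD), a difference of -2.03 points. Among retained barcodes alone it held 72.4% (HFD) and 76.6% (CD), a difference of -4.26 points. For the glucagon class the HFD minus CD difference was 1.75 points with and 3.22 points without high-mitochondrial barcodes, for the pancreatic polypeptide class 0.955 and 1.62, and for the somatostatin class -0.671 and -0.582. High-mitochondrial barcodes held 21.3% (HFD) and 10.2% (CD) of the mitochondrial UMIs of both sets.

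The 2 libraries also differed in the barcodes of at most 15% mitochondrial UMIs with under 500 genes. Of 54 in the HFD library 28 had over 50% of their UMIs outside mitochondrial genes on haemoglobin and 23 on islet hormones, with a median of 1961 UMIs and 221 genes. Of 245 in the CD library 5 were of the haemoglobin kind and 234 of the hormone kind, with a median of 1718 UMIs, 446 genes and 12% mitochondrial UMIs, against 3.34% in the HFD library.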
